A study of Homo sapiens with 3 samples.

Results

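The 9 genes described here encode the protein parts and the lipid enzymes of intestinal lipoproteins. They are APOB, APOA1, APOA2, APOA4, APOC3, APOE, APOM, MTTP and DGAT1, and they were taken by symbol from the 33538 genes of the count matrices. All 9 were found, each as 1 row. Their RNA was measured in single cells of 3 co-cultures of the human colorectal cancer lines Caco-2 and HT29, seeded 9 to 1 on Transwell membranes and harvested on day 23. Control 1 and control 2 were untreated, and the LPS library (LPS 1) received 1 ng/ml of Escherichia coli O111:B4 lipopolysaccharide on the apical side from day 22 for 24 h. All 3 cultures shared the medium and the passages (Caco-2 at 8, HT29 at 13), so each line is 1 stock, grown with no microbes, immune cells or added lipid named in the sources. Nothing in the labels says that the libraries came from separate experiments, so p-values measure the spread between these libraries, which may be technical.

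Enterocytes of the small intestine take up fatty acids and monoglycerides, rebuild triglyceride in the endoplasmic reticulum, and load it onto APOB, the large protein that stays with its particle for life. MTTP, the microsomal triglyceride transfer protein, carries out the first lipid transfer, and DGAT1 makes the triglyceride in its last acylation step. The smaller apolipoproteins can move between particles: APOA4 and APOA1 are made by the gut and the liver, APOC3 slows the clearance of triglyceride-rich particles, APOE is the ligand for their uptake by receptors, APOA2 is a protein of high-density lipoprotein made mostly in the liver, and APOM carries sphingosine-1-phosphate. Caco-2 is a colon cancer line that takes on an enterocyte-like form on membranes, whereas HT29 is used as a source of mucus-secreting cells.

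After filtering, 4633, 4989 and 4850 cells were kept in control 1, control 2 and the LPS library, with medians of 5447, 4103 and 3573 unique molecular identifiers (UMIs, each tagging 1 captured RNA molecule). The libraries held 33893707, 27934953 and 24185467 UMIs before filtering, so the LPS library was the shallowest. Each cell was given to a line by its UMIs on 394 HT29 genes and 739 Caco-2 genes from bulk monocultures, with the members and their pathway left out. Caco-2-line cells numbered 3938, 3938 and 3963, HT29-line cells numbered 642, 960 and 796, and the remaining 53, 91 and 91 cells were not used for the line comparison. Levels are given as CPM, the gene's UMIs per 1000000 UMIs summed over the named cells of a library. The libraries shared at most 11 barcodes in any pair.

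APOA4, APOC3 and APOA1 lie next to each other on chromosome 11 (GRCh38). APOA4 is at chr11:116820700-116823304 on the minus strand, APOC3 at chr11:116829706-116833072 on the plus strand, and APOA1 at chr11:116835751-116837622 on the minus strand. APOA1 overlaps the antisense gene APOA1-AS. Elsewhere lie APOB at chr2:21001429-21044073 with 29 exons and an mRNA of 14121 bases, APOA2 at chr1:161222292-161223631, APOM at chr6:31652416-31658210, APOE at chr19:44905791-44909393 and MTTP at chr4:99564081-99623997.

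The RefSeq promoter table (GRCh38.p14) held APOA2, APOA4, APOE, APOM and MTTP, and not APOB, APOA1, APOC3 or DGAT1. The 250 bases before the transcription start of APOA4, MTTP and APOE are shown because APOA4 and MTTP were highest in enterocyte-like cells and APOE was not. They run 5′ to 3′ on the gene's strand, at chr11:116823305-116823554 (minus) for APOA4, chr4:99574574-99574823 (plus) for MTTP and chr19:44905546-44905795 (plus) for APOE. Capitals mark matches on either strand to the letters AAAGTCCA (a site form of HNF4A), the palindromic site of HNF1 (11 letters, with any base at its centre), TATAAA (the TATA box) and GGGCGG (of SP1).
APOA4: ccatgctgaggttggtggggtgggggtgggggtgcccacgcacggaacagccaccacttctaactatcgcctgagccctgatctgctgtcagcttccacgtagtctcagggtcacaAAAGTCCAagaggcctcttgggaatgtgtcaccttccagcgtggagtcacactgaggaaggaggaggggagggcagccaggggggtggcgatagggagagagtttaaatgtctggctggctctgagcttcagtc
MTTP: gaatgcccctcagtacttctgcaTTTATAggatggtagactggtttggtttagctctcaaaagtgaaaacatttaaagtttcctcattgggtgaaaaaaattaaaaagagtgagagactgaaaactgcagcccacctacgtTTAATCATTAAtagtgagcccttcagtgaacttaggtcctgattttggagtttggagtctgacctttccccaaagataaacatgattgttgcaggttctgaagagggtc
APOE: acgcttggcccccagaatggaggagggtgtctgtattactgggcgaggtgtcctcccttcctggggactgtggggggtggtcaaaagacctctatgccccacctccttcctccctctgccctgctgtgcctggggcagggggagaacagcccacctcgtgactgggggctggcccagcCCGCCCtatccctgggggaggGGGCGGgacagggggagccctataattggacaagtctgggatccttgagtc
The APOA4 promoter held AAAGTCCA 134 bases before the start, letters that were in 0.984% of 34943 promoter windows of the same length. The MTTP promoter held the HNF1 letters 109 bases before the start, which 0.0887% of the windows held, and TATAAA on the other strand 227 bases before it, which 10.8% held. The APOE promoter held GGGCGG 72 and 51 bases before the start, the first on the other strand, and 42.5% of windows held those letters. APOA2 and APOM had none of these motifs, nor GTTAAT (6.24% of windows) or TGACGTCA (1.63%), in their windows. No binding was measured, and a match is only a match of letters.

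The first comparison asked which line of the co-culture expressed the genes. In every library, 8 of the 9 members were at 4.04 to 9.49% of their Caco-2-line level in HT29-line cells, and DGAT1 was at 73.0 to 77.9%. Together, the 9 genes took 1.70, 1.41 and 1.32% of all UMIs of Caco-2-line cells in control 1, control 2 and the LPS library, against 0.0925, 0.0705 and 0.0984% in HT29-line cells. All 9 members passed the test as higher in Caco-2-line cells (edgeR's quasi-likelihood test with the library as a block, Benjamini-Hochberg adjusted over all genes), where 37.9% of the 13378 genes tested did so and 33.5% were lower. The median log2 difference was 4.25 over the members and 0.07 over all genes tested. The size depended on the line call: with lines called from HT29 markers alone, all 9 still passed. The log2 difference was then 0.30 for DGAT1, and for the other members it ran from 1.99 for APOA2 to 2.88 for APOB, with 2.36 for APOA1.

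APOB, the structural protein, was at 488 CPM in Caco-2-line cells of control 1, 371 in control 2 and 503 in the LPS library, against 20.2, 15 and 32.6 in HT29-line cells. The 2 sets of values did not overlap, and the log2 difference was 4.44 (SE 0.12, edgeR adjusted p = 1.09e-21). MTTP, its lipid-loading partner, was at 160.0, 126 and 146 CPM against 7.21, 5.40 and 9.54, a log2 difference of 4.38 (SE 0.14). The gene pair needed for the first step of assembly was therefore measured mainly in the same line.

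Among the exchangeable apolipoproteins, APOA1 was at 6331, 4841 and 4229 CPM in Caco-2-line cells and at 306, 202 and 278 CPM in HT29-line cells. APOC3 was at 3901, 3402 and 3039 CPM against 217, 152 and 238. APOE was at 2463, 2377 and 2161 CPM against 132, 121 and 146. These 3 genes had log2 differences of 4.36 (SE 0.09), 4.18 (SE 0.10) and 4.21 (SE 0.09). APOA4, a marker of mature enterocytes, was at 1525, 1195 and 1363 CPM against 64.4, 53.0 and 73.0, a log2 difference of 4.5 (SE 0.09). APOA2, better known from the liver, was at 1916, 1549 and 1494 CPM against 91.3, 71.5 and 114 (log2 4.25, SE 0.11). APOM was at 161, 156 and 139 CPM against 12.4, 11.1 and 13.2 (log2 3.72, SE 0.12). The 8 genes were thus in the same range of difference, with APOM the lowest of them.

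DGAT1 stood apart. Its level was 97.2, 95.9 and 109 CPM in Caco-2-line cells and 74.1, 74.7 and 79.7 CPM in HT29-line cells. The values did not overlap, yet the log2 difference was only 0.47 (SE 0.09, 95% interval 0.29 to 0.66, edgeR adjusted p = 4.31e-05). DGAT1 thus differed by 1.39-fold between the lines, where MTTP differed by 20.86-fold. DGAT2, another gene of triglyceride synthesis, differed by 2.14-fold (log2 1.09).

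**Figure D1:**
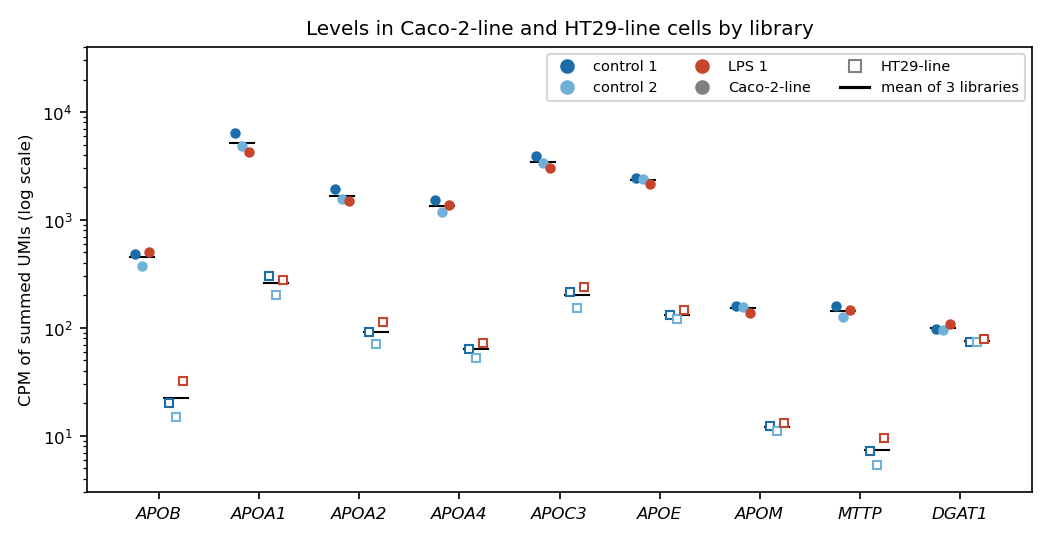
Levels of the 9 genes, in CPM on a log axis, in Caco-2-line cells (filled circles) and HT29-line cells (open squares) of control 1, control 2 and the LPS library, with a bar at the mean of the 3. For 8 genes the HT29-line values lie at 9.49% or less of the Caco-2-line values of the same library, while for DGAT1 they lie at 73.0% or more.

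UMIs of these genes in HT29-line cells sit beside the free RNA that any droplet can hold. Of 11 enterocyte and fetal liver genes at 50 CPM or more in Caco-2-line cells, taken from the marker lists, the median was at 7.48, 5.38 and 11.4% of the Caco-2-line level in HT29-line cells of control 1, control 2 and the LPS library, with a range of 1.28 to 63.2% over all libraries. In control 1 it was 1.28% for ALB and 48.1% for VIL1. The members other than DGAT1 had medians of 4.80, 4.45 and 6.67%, and how much of their HT29-line level was free RNA was not tested. By cells, APOA1 gave a UMI in 97.9, 96.7 and 97.0% of Caco-2-line cells and in 24.9% (exact binomial 95% interval 21.6 to 28.5), 25.8% (23.1 to 28.7) and 25.5% (22.5 to 28.7) of HT29-line cells. The HT29-line cells held 1231, 824 and 902 UMIs of APOA1 in total, all within that minority of the cells. Where these UMIs came from was not tested. Median depths were 5456, 4204 and 3568 UMIs per cell in the Caco-2 line and 5395, 3756 and 3554 in the HT29 line. DGAT1 gave a UMI in 40.1, 33.5 and 33.1% of Caco-2-line cells and in 34.1, 25 and 26.9% of HT29-line cells. These intervals cover counting error only.

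Of 113 other genes of lipoprotein assembly and metabolism, 99 were tested between the lines. Of these, 46 were higher and 31 lower in Caco-2-line cells, with a median log2 difference of 0.24. Over the 13378 genes tested, with the line lists left out, 37.9% were higher and 33.5% lower. These shares are the background for this count and for the group counts below. Of the 9 other apolipoproteins tested, 4 were higher and 3 lower. APOC1, a small apolipoprotein encoded beside APOE, was at 808, 745 and 686 CPM against 66.2, 45.9 and 62.8 (log2 3.76), and CLU, the chaperone-like apolipoprotein J, had a log2 difference of 2.92. APOL1, the trypanosome lytic factor, went the other way, at 1.22, 1.92 and 1.68 CPM against 45.8, 67.5 and 55.1 (log2 -5.06). APOC2, the cofactor of lipoprotein lipase, was at 1.96, 0.656 and 1.08 CPM in Caco-2-line cells with no UMI in HT29-line cells, and its fitted fold is no bound.

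Among the 17 genes of particle lipidation and export from the endoplasmic reticulum, 7 were higher and 7 lower in Caco-2-line cells. The 3 with the largest differences were all known for adding lipid to APOB particles: PLA2G12B (log2 3.89), TM6SF2 (log2 3.73) and CIDEB (log2 2.65). TM6SF2 was low, at 5.57, 5.81 and 5.70 CPM against 0.498, 0.246 and 0.616, so its fold rests on few UMIs. SEC23A, a coat protein of export vesicles, followed with a log2 difference of 1.37. Of the 4 genes of APOB mRNA editing, which makes the short intestinal form of the protein, the complementation factor A1CF was at 78.1, 71.3 and 73.1 CPM against 4.23, 2.46 and 6.77 (log2 4.17). The deaminase APOBEC1 was at 9.22, 5.30 and 5.04 CPM against 2.49, 3.44 and 4.62 (log2 0.99). The 3′ UMI counts do not show whether the APOB transcript itself was edited.

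The remaining groups were mixed. Of 15 genes of triglyceride and cholesterol ester synthesis, 7 were higher and 4 lower. SOAT2, which makes cholesterol esters for lipoproteins, had a log2 difference of 4.0 and SOAT1 of 2.00, while ACSL1, which activates fatty acids, and LPIN2, a phosphatidate phosphatase, had -2.39 and -1.35. Of 22 transcription factors of the pathway, 12 were higher and 5 lower in Caco-2-line cells. CREB3L3 (log2 4.21), NR5A2 (log2 3.74) and CDX2, the intestinal identity factor (log2 3.39), were higher, and ONECUT2 was lower (log2 -2.77). SOAT2, CREB3L3 and NR5A2 were at 2.15, 0.995 and 1.47 CPM or less in HT29-line cells, so their folds rest on few UMIs.

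All 10 lipoprotein receptor genes tested passed the threshold, 3 higher and 7 lower, where 37.9% of all genes tested were higher and 33.5% lower. LRP2, the receptor megalin, had a log2 difference of 4.37, whereas LRP8 and VLDLR, which bind APOE, had -4.33 and -2.48. Of 6 genes that remodel lipoproteins in plasma, 4 were higher and 1 lower, among them the hepatic lipase LIPC (log2 4.85) and LCAT (log2 2.21) on one side and the lipase inhibitor ANGPTL4 (log2 -3.92) on the other. Of 10 lipid droplet genes, 5 were higher and 3 lower: the droplet proteins CIDEC and PLIN2 had 2.57 and 2.34, and PLIN4 and the lipase MGLL had -3.72 and -2.92. Of 6 genes of lipid uptake and efflux, CD36 (log2 2.62) and the cholesterol importer NPC1L1 (log2 2.45) were higher and SCARB1 (log2 -0.34) was lower. CD36 was near the floor, at 2.83, 5.05 and 1.38 CPM against 0.746, 0.246 and 0.616. NPC1L1 was at 9.10, 11.6 and 14.2 CPM against 0.995, 3.44 and 2.15. LCAT, at 6.46 CPM or less, and PLIN4, at 4.98 or less, were also low in both lines, so these folds rest on few UMIs. LRP2 and LIPC were at 1.23 and 0.746 CPM or less in HT29-line cells, so their folds rest on few UMIs there.

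Within the Caco-2 line, the members differed in how many cells carried them. To compare genes and libraries at 1 depth, each cell was thinned to 1500 UMIs. APOA1 then gave a UMI in 94.2, 92.8 and 92.5% of Caco-2-line cells of control 1, control 2 and the LPS library, and APOE in 89.7, 89.4 and 87.7%. APOA4 gave a UMI in 32.2, 28.7 and 29.3%, with means of 2.40, 1.88 and 2.12 UMIs per cell over all of them. Before thinning the shares of APOA4 were 45.4, 37.7 and 37.7%. APOA1 and APOE were therefore spread over nearly all cells, and APOA4 was concentrated in a subset.

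The concentration is seen in the share of a gene's UMIs held by its 10% of cells with the most. For APOA4 it was 72.5, 77.3 and 78.7%, against 27.6, 28.4 and 29.9% for APOA1 and 29.2, 28.3 and 29.1% for APOE. The variance over the mean was 16, 16 and 16.8 for APOA4 and 2.84, 2.44 and 2.48 for APOE. APOC3 lay between them, with 39.3, 48.3 and 46.3% of its UMIs in its top cells and detection in 80.7, 72.8 and 72.2% of cells, and so did APOA2, with 46.2, 48.9 and 53.5% and detection in 67.3, 61.5 and 59.1%. APOB was detected in 39.5, 31.3 and 37.1% of thinned cells, with 53.3, 60 and 58.7% of its UMIs in the top cells. APOM, MTTP and DGAT1 gave a UMI in 12.5 to 20.2% of thinned cells, with means of 0.139 to 0.253 UMIs per cell, too few to read a concentration at this depth.

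**Figure D2:**
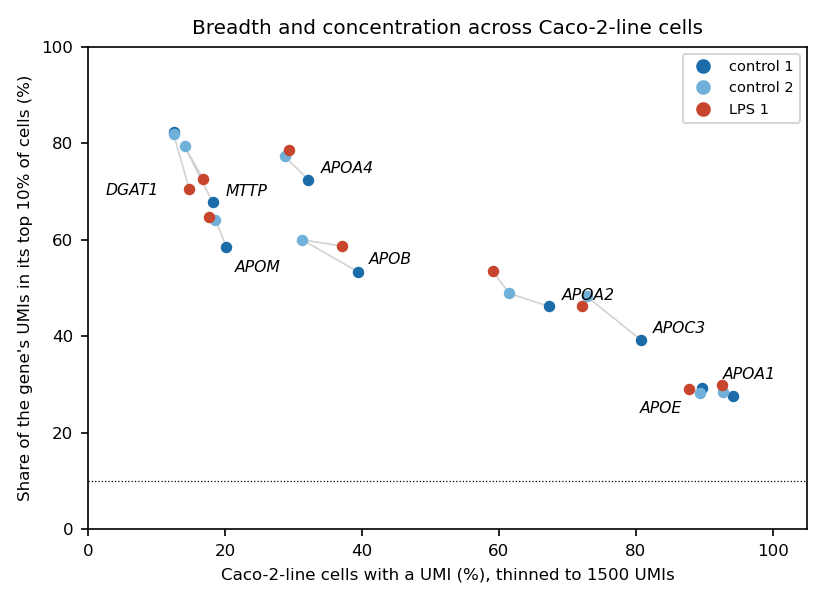
Share of Caco-2-line cells with a UMI after thinning to 1500 UMIs (horizontal, percent) against the share of the gene's UMIs in its top 10% of cells (vertical, percent), 1 point per gene and library, with the dotted line at 10%, an even spread. APOA1 and APOE lie low on the right, while APOA4 lies at 72.5% or more with a UMI in 28.7 to 32.2% of cells.

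Some of the members also varied together between cells. Over the 36 pairs in thinned Caco-2-line cells, Spearman's rho was highest for APOA4 and APOC3, at 0.615, 0.622 and 0.609 in control 1, control 2 and the LPS library. It was 0.440, 0.407 and 0.482 for APOB and APOA4, 0.375, 0.384 and 0.405 for APOB and APOC3, and 0.338, 0.372 and 0.411 for APOA4 and MTTP. APOA1 was nearest to APOC3 (0.366, 0.372 and 0.369) and to APOE (0.346, 0.297 and 0.274). APOA1 and its neighbour APOA4 gave 0.188, 0.203 and 0.216, well below APOA4 and APOC3. APOE was near 0 with APOB, APOC3, APOA4 and MTTP, with means of 0.006 to -0.068. These are descriptions over 3938, 3938 and 3963 cells, which share their library and depth, and low counts pull rho toward 0.

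**Figure D3:**
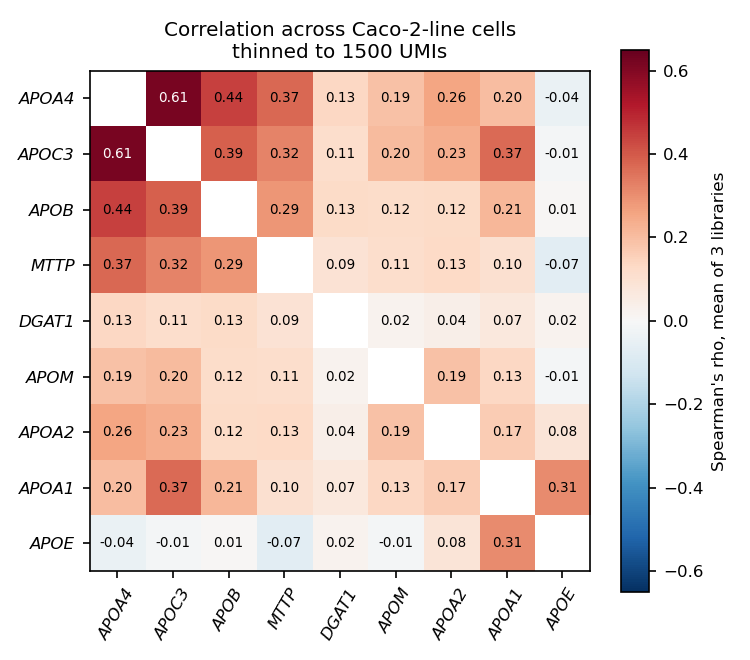
Spearman's rho between each pair of members across Caco-2-line cells thinned to 1500 UMIs, as the mean of 3 libraries (colour and printed value). APOA4, APOC3, APOB and MTTP form a block of values from 0.288 to 0.615, and APOE joins only APOA1, at 0.306.

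Clustering without the members or the pathway genes gave 14 clusters, of which 10 of the Caco-2 line held at least 10 cells in every library. Members were not used to form them, but the clusters come from the same cells, so the levels below are descriptions. By the marker lists, 2 clusters were enterocyte-like, 1 led by FABP2 and S100G (2326 cells) and 1 led by ITGA5 (952 cells). Others were stem-like with SMOC2 and LGR5 (779 cells), fetal liver gene-like with ALB and AFP (626 cells) and enteroendocrine-like with INSM1 and PAX4 (181 cells). The cluster led by ANKRD1 and DKK1 (3116 cells), that led by S100A9 and ANKRD37 (2404 cells), that led by the replication and mitosis genes SPC25, RRM2 and MCM10 (1020 cells), that led by FCGBP and SPRR1B (311 cells) and that led by STC1 and GPC5 (90 cells) stayed unnamed.

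APOA4 had the widest range. It was at 5312, 5016 and 5272 CPM in the FABP2 cluster and at 3385, 2361 and 3149 CPM in the ITGA5 cluster, and these did not overlap each other or any other cluster. It was at 110.3, 32.6 and 51.9 CPM in the ANKRD1 cluster, so the highest mean over the lowest was 80.0. MTTP was also highest in these 2 clusters, at 386, 359 and 396 CPM in the FABP2 cluster and 447, 368 and 418 CPM in the ITGA5 cluster, which overlapped, and at 21.7, 15.9 and 15.8 CPM in the ANKRD1 cluster. Both genes thus set the enterocyte-like clusters apart from the rest in this clustering. At a Leiden resolution of 0.8 they did not. There, an unnamed cluster led by S100A9 and ARG1 had APOA4 at 2828, 2682 and 2874 CPM. The enterocyte-like cluster led by ITGA5 had 3261, 2080.0 and 3044. For MTTP the unnamed cluster had 308, 290.4 and 309 CPM, above the enterocyte-like cluster led by GNRH2 at 271, 202 and 225.

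APOB and APOC3 differed in opposite directions between the 2 enterocyte-like clusters. APOB was highest in the ITGA5 cluster, at 1653, 1542 and 1579 CPM, and stood at 954, 791 and 1124 CPM in the FABP2 cluster, with no overlap. APOC3 was highest in the FABP2 cluster, at 9076, 10299.6 and 8196 CPM, against 4628, 4304 and 3676 CPM in the ITGA5 cluster. The FABP2 cluster over the ITGA5 cluster gave 0.58, 0.51 and 0.71 for APOB and 1.96, 2.39 and 2.23 for APOC3. The same ratio was 2.57, 1.99 and 2.21 for APOA2, 1.92, 1.87 and 1.81 for APOM and 1.57, 2.12 and 1.67 for APOA4. MTTP, at 0.86, 0.98 and 0.95, and APOE, at 1.15, 0.93 and 1.03, were close to even.

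APOA1 and APOE had their highest means outside the enterocyte-like clusters in this clustering. APOE was at 4349, 3627 and 3772 CPM in the stem-like cluster, against 2341, 1907 and 1843 in the FABP2 cluster and 1580.2, 1603 and 1448 in the S100A9 cluster, its lowest. APOA1 was at 9602, 6822 and 6809.8 CPM in the stem-like cluster and at 8232, 6823 and 6641 CPM in the fetal liver gene-like cluster, which overlapped. The STC1 cluster of 90 cells was second by mean for both genes. Its values were 11144, 7399 and 3292 CPM for APOA1 and 4165, 2815 and 2736 for APOE. Their range was narrow: the highest mean over the lowest was 2.5 for APOE and 2.8 for APOA1. APOA2 had its highest mean in the fetal liver gene-like cluster in this clustering, at 3008, 2062 and 3389 CPM. The FABP2 cluster followed at 2812, 2501 and 2242, and these overlapped. APOM was at 287, 319 and 256 CPM in the FABP2 cluster. It was at 219, 197 and 231 in the fetal liver gene-like cluster, with no overlap. At a Leiden resolution of 0.8 the order changed for APOA1. Its highest mean was then in the fetal liver gene-like cluster, at 8392, 6967 and 6750.4 CPM. The enterocyte-like cluster led by GSTA1 had APOA1 at 7571, 6398 and 5163, and the stem-like cluster at 7153, 4716 and 5246. For APOA2 the order changed there too. The enterocyte-like cluster led by GSTA1 then had the highest mean, at 3616, 3204 and 2976 CPM. The stem-like cluster was next at 3469, 3083 and 2774, and the fetal liver gene-like cluster had 2970.3, 1927 and 3342.

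DGAT1 varied less than APOB or MTTP, with the highest mean 3.7 times the lowest. It was at 209, 152 and 171 CPM in the ITGA5 cluster and at 137, 157 and 162 in the FABP2 cluster, which overlapped, and at 33.7, 37.7 and 74.2 in the enteroendocrine-like cluster, where 8, 9 and 9 UMIs were behind the values. Of the 9 pairs of neighbours in each gene's order of clusters, 4 had no overlap between libraries for APOB and APOM, 3 for APOC3 and APOE, 2 for APOA4 and MTTP, and 1 for APOA1, APOA2 and DGAT1. Most neighbours in each order therefore overlapped between libraries, though some gaps lay in the middle of an order. APOE was at 3289, 3124 and 3283 CPM in the fetal liver gene-like cluster, clear of the ANKRD1 cluster at 2829, 2929 and 2512. In a placental gene-like cluster of 74 cells, with 23, 43 and 8 cells in the libraries, APOE was at 1759.7, 1605 and 2577 CPM and APOA1 at 526, 275 and 1727.

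**Figure D4:**
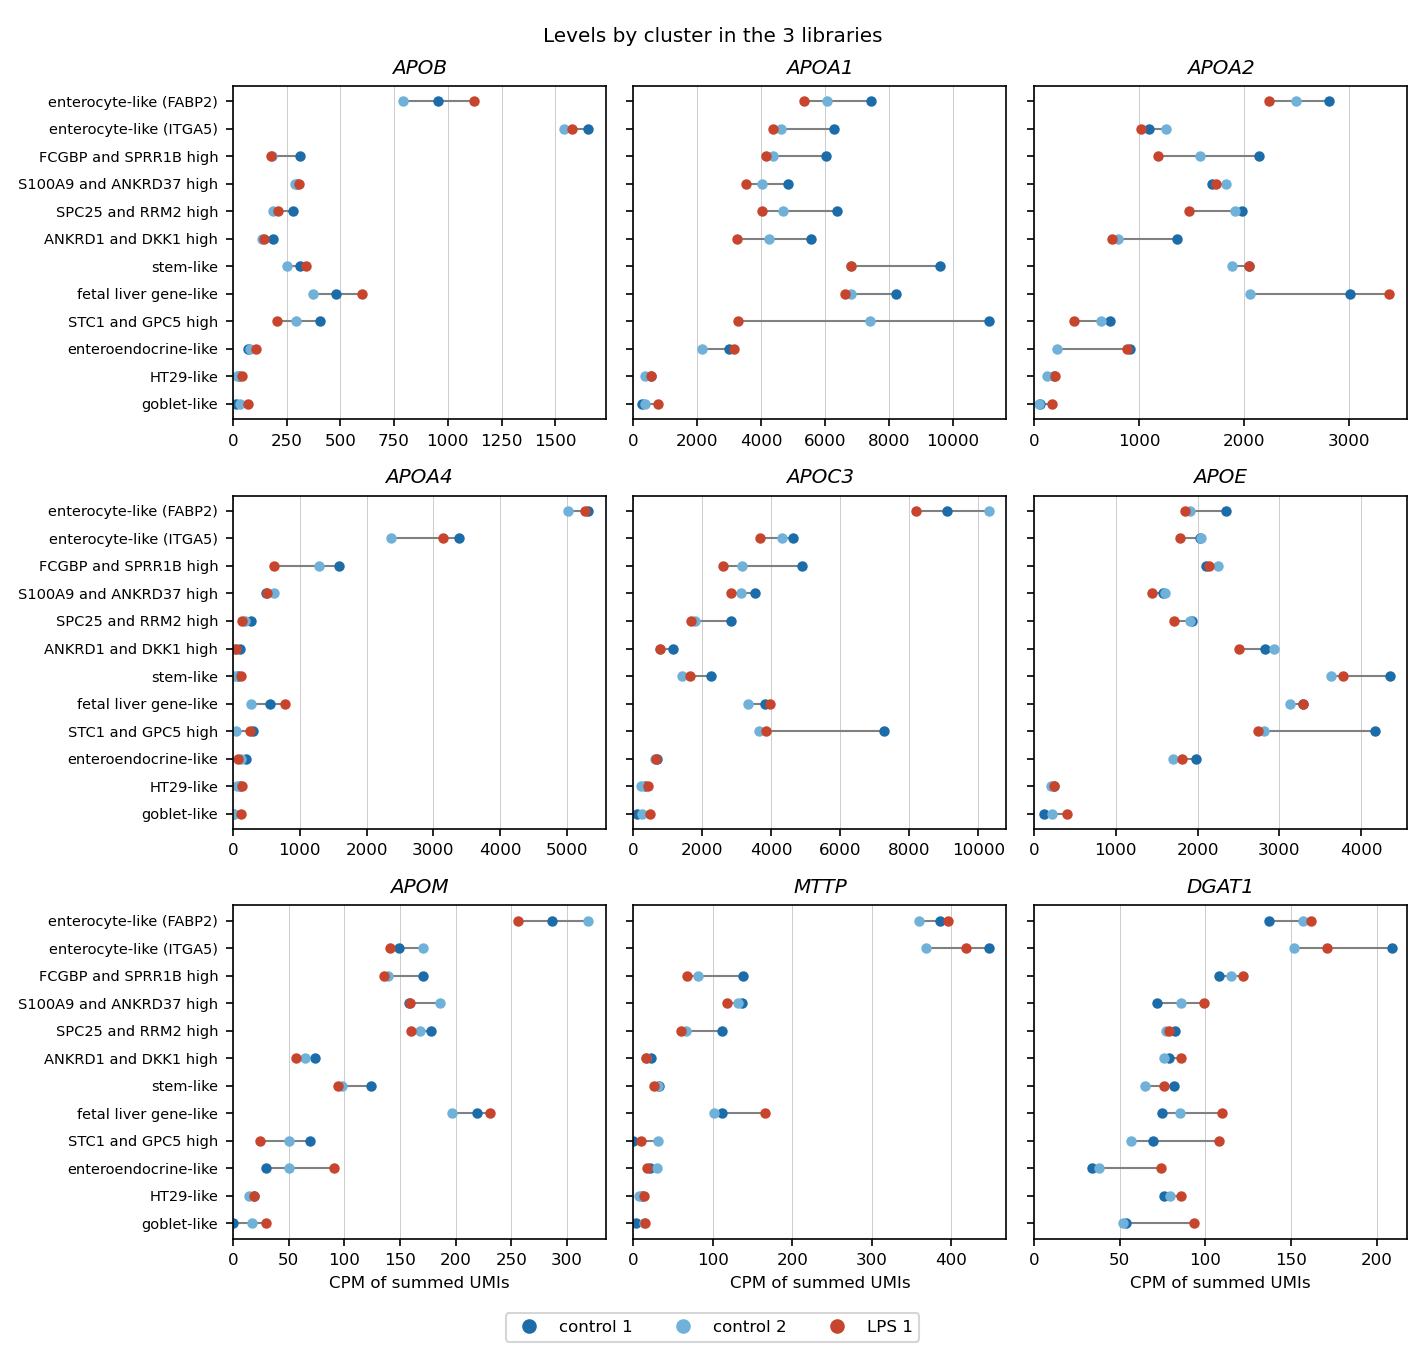
CPM of each member in the 12 clusters with at least 10 cells in every library, 1 point per library joined by a line from the lowest to the highest, each panel with its own linear axis from 0. APOA4 and MTTP are highest in the 2 enterocyte-like clusters, APOB is highest in the one led by ITGA5, and APOE has its highest mean in the stem-like cluster.

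Taking the 2 enterocyte-like clusters against the other Caco-2-line cells of the same library, 8 members were higher in all 3 libraries and APOE was lower in all 3. How many of all genes were higher or lower in all 3 is not reported here, so these counts have no background. The log2 difference, as mean ± SD over the 3 libraries, was 4.03 ± 0.15 for APOA4, 2.61 ± 0.17 for MTTP, 2.24 ± 0.15 for APOB and 1.99 ± 0.27 for APOC3. It was 1.08 ± 0.16 for APOM, 0.94 ± 0.06 for DGAT1, 0.54 ± 0.15 for APOA2 and 0.31 ± 0.06 for APOA1. For APOE it was -0.28 ± 0.11, at 2271, 1936 and 1834 CPM in enterocyte-like cells and 2532, 2501 and 2273 in the others. The difference was thus largest for APOA4 and had the opposite sign for APOE. For APOA2 the higher level did not hold in both clusters. The ITGA5 cluster had APOA2 at 1093, 1258 and 1016 CPM, below the other Caco-2-line cells at 1735, 1359 and 1369.8. With clusters from a Leiden resolution of 0.8, the value for APOA4 was 2.93 and 8 members were higher in all 3 libraries. With clusters from log-normalised data without anchors, it was 3.72, and 7 members were higher in all 3 libraries. For APOA1, the mean was 0.23 at a resolution of 0.8 and 0.14 with log normalization, so its small difference depended on the clustering.

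The genes most like each member across clusters were found by Pearson's r of log2(CPM + 1) over the 12 clusters, among 8068 genes, as the mean of the 3 libraries. APOA1 and APOE were each among the 3 closest to the other (r = 0.966), and so were APOA2 and APOM (0.936). APOB was closest to SLC37A4 (0.95), the glucose-6-phosphate transporter, then MST1 (0.948) and HNF4A (0.925), the liver and gut transcription factor. APOA4 was closest to MS4A10 (0.925), then to the chloride exchanger SLC26A3 (0.888) and the brush border protease MEP1A (0.885). APOC3 was closest to RBP2 (0.951), the retinol-binding protein of enterocytes, with AP003716.1 and HSD17B14 next. MTTP was closest to LGI4 (0.902), followed by PCK1 (0.896) and the brush border myosin MYO1A (0.892). Among the 3 closest to DGAT1 were CLDN15 (0.837) and PFKL (0.835). APOE was closest to GPC3 (0.968), APOM to AVP (0.95) and RASGRP2 (0.945), and APOA2 after APOM to AC026462.3 (0.926) and APOC1 (0.917). CHST13 was among the 3 for both APOA1 (0.959) and APOE (0.957), and CISD1 (0.954) completed those of APOA1. The 12 clusters share their libraries and include 2 of the HT29 line, so r also holds the difference between the lines. In the HT29-like and goblet-like clusters, mean APOA1 was 498 and 472 CPM and mean APOE 229.6 and 247. No r over the Caco-2-line clusters alone is reported here.

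The last comparison asked whether LPS changed the genes. In Caco-2-line cells, none of the 9 members passed the test (edgeR's quasi-likelihood test, 2 controls against 1 LPS library with 1 residual degree of freedom), where 0.00643% of the 15551 genes tested were higher and 0.0193% lower, which is 1 and 3 genes. At an unadjusted p under 0.05 there were 963 genes, 1 of them a member. DESeq2 also called none of the members. The lone LPS library was assumed to vary as the controls did. None of the 102 other pathway genes tested passed either, and 7 were under an unadjusted 0.05.

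That member was APOA1, at 6331 and 4841 CPM in the controls and 4229 in the LPS library, below both. Its log2 difference was -0.48 (SE 0.21, 95% interval -0.93 to -0.04, edgeR unadjusted p = 0.0358, adjusted p = 0.802). The LPS library was at 0.76 times the control mean, and control 1 was 1.31 times control 2. APOC3 was at 3039 CPM against 3901 and 3402 (log2 -0.34, interval -0.74 to 0.05), and APOA2 at 1494 against 1916 and 1549 (log2 -0.30, interval -0.69 to 0.10). APOE (log2 -0.24, interval -0.61 to 0.13) and APOM (log2 -0.27, interval -0.57 to 0.03) also lay below both controls. These 5 intervals all have a lower bound of -0.57 or less, so falls of up to that size lie within them. The share of all genes that lay below both controls is not reported here, so the count of 5 has no background.

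The other 4 members did not lie below both controls. APOB was at 503 CPM against 488 and 371 (log2 0.14, interval -0.24 to 0.53), and DGAT1 at 109 against 97.2 and 95.9 (log2 0.10, interval -0.19 to 0.38), above both. APOA4, at 1363 against 1525 and 1195, and MTTP, at 146 against 160.0 and 126, lay between the controls, with log2 differences of -0.08 and -0.05. Over the 10 clusters of the Caco-2 line, the LPS library was below both controls in 9 for APOA1 and above both in 7 for DGAT1. The clusters share the library, so these counts are not independent.

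**Figure D5:**
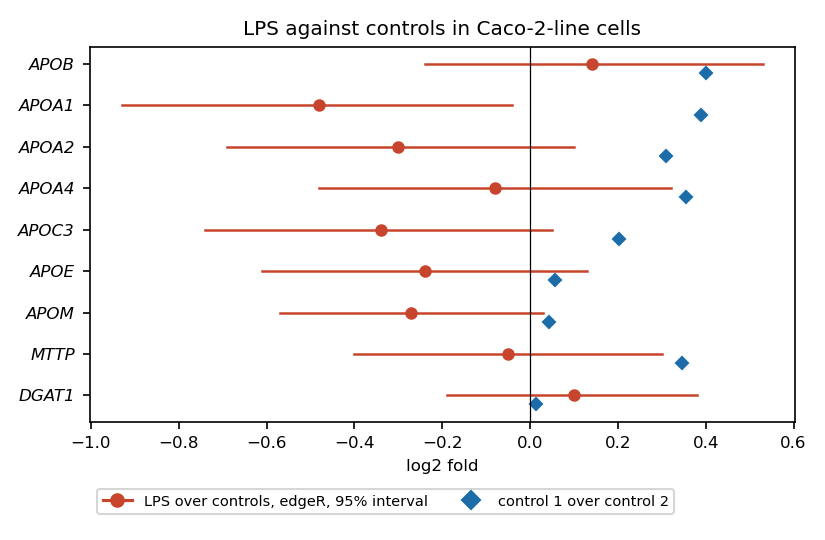
Log2 fold of each member in Caco-2-line cells, LPS over controls from edgeR with its 95% interval (red), and control 1 over control 2 (blue diamonds). The intervals of 8 members include 0, that of APOA1 runs from -0.93 to -0.04, and the 2 controls differ by 1.15 to 1.32 times for 6 genes.

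In HT29-line cells, 8 members were highest in the LPS library, and APOA1 lay between the controls. Tested directly, the LPS difference was lower in Caco-2-line than in HT29-line cells for 3 members: APOC3 (log2 -0.67, SE 0.13, adjusted p = 0.0121), APOA1 (log2 -0.57, SE 0.11, adjusted p = 0.0219) and APOA2 (log2 -0.73, SE 0.15, adjusted p = 0.0315). This test of the line by LPS term in edgeR also had 1 residual degree of freedom and 1 LPS library. In it, 0.0729% of 15091 genes were lower and 0.0199% higher. The HT29-line values behind it were 217 and 152 CPM in the controls against 238 for APOC3, 306 and 202 against 278 for APOA1, and 91.3 and 71.5 against 114 for APOA2. Beside this, 10 of the 11 enterocyte and fetal liver genes also had their highest HT29-line level in the LPS library. The HT29-line share of the Caco-2-line level was highest there for 8 of these 11 genes and for 8 of the 9 members. The summed level of the 11 genes in HT29-line cells was 888 and 771 CPM in the controls against 1038. The share over all genes is not reported here. The part of free RNA in the difference was not tested. Neither DESeq2 nor library totals without TMM scaling called any of the 3.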

How the data were processed

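Single-cell RNA was measured with the 10x Genomics 3′ assay in 2 control libraries and 1 LPS library. The matrices, as deposited by the authors, hold UMI counts per gene and barcode, made with Cell Ranger (3.1.0 per the file headers) from reads aligned to GRCh38, with no normalization. Cells were kept at the study's minimums of UMIs and genes for each control, with those of control 2 used for the LPS library (1500 UMIs, 700 genes), and with mitochondrial shares of 20% or less. Scrublet by itself marked 0, 0 and 1 cells, so the 6% with the highest scores (296, 318 and 310 cells) were removed.

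Line calls came from a 2-component Gaussian mixture on the log2 ratio of UMIs on the study's bulk-derived lists, with a posterior of at least 0.95. Counts were summed per library and line and tested with edgeR 4.0.16 in R 4.3.3 (TMM scaling, filterByExpr, Benjamini-Hochberg adjustment, threshold 0.05). DESeq2 1.42.0 was the other tool. Genes of the line lists were left out of the background of the line comparison. Clusters came from SCTransform (sctransform 0.4.2) per library, anchor integration in Seurat 5.3.0 on 3000 features without the pathway genes, 50 components, 15 neighbours and Leiden clustering at 0.5. A cluster was named when at least 3 markers were raised, 2 of them among its top 10 genes, and no other class had more. This naming rule and the doublet rule were set after cells and clusters had been seen.

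Named are the members, up to 4 genes per role past the threshold with the largest fold, and the 3 genes most like each member, some of which are not reported here. ALB, VIL1 and DGAT2 were named after their values were seen. The members and lists were chosen with earlier results of these data known. Coordinates are from GENCODE and promoters from RefSeq. The edgeR fits were tested on simulated data. Alternatives covered the test, scaling, filters, doublets, line calls, clustering, depth, the library block and each library left out.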

Additional observations from a re-analysis of the deposited data

Results flagged for a closer look

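The LPS difference of 3 members differed between the lines by a test of the difference itself, the line by LPS term in edgeR. The term was -0.67 for APOC3, the inhibitor of triglyceride clearance, -0.57 for APOA1, the main protein of high-density lipoprotein, and -0.73 for APOA2, on the log2 scale and with edgeR adjusted p-values of 0.0121, 0.0219 and 0.0315. None of the 3 was called with DESeq2 (adjusted p = 1.000 for each) or with edgeR on library totals without TMM scaling (adjusted p = 0.538, 0.593 and 0.415), with terms from -0.71 to -0.54 over both alternatives. In Caco-2-line cells the LPS library was at 0.83 times the control mean for APOC3, 0.76 times for APOA1 and 0.86 times for APOA2, and in HT29-line cells at 1.29, 1.09 and 1.40 times. The HT29-line values rest on 873, 617 and 774 UMIs of APOC3, 1231, 824 and 902 of APOA1 and 367, 291 and 371 of APOA2 in control 1, control 2 and the LPS library. ALB, a fetal liver gene of the marker lists, had a term of -2.50 in the same test. It was at 3.98 and 10.8 CPM in HT29-line cells of the controls against 48.9 in the LPS library. ALB belongs to the set of 11 enterocyte and fetal liver genes, and no other gene of that set was called for the term. The test of the term had 1 residual degree of freedom, and with 1 LPS library there is no replicate of the treated culture.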

How the results depend on the processing

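All 9 members stayed past the threshold and higher in the Caco-2 line under each of 11 alternatives, including the fit with no replicate block (9 members, 9750 genes in all) and the fits without each library (9311 to 9664 genes called, against 10524, genes of the line lists included). The size moved most when the line was called from HT29 markers alone. The log2 difference was then 1.99 for APOA2, the lowest apart from DGAT1 (0.30), against 4.25 in the main test. For APOA1 and APOB it was 2.36 and 2.88 with this call, against 4.36 and 4.44 in the main test. They were at 3.77 and 3.56 with doublets kept and 3.71 and 3.98 at a posterior of at least 0.5. The cause was not tested. No member was called for LPS under any alternative, but the count over all genes, 4 in the main test, was 16 without TMM, 53 without the filter, 18 with doublets kept, 47 with the minimums of control 1 in all libraries, 57 at a posterior of at least 0.5, 48 with the HT29 marker call and 19 over whole libraries. The sign for APOA4 changed to 0.00 and for MTTP to 0.03 without TMM. Without control replicate 1 or 2, which leave no residual degrees of freedom and so give a value without a test, the log2 difference ran from -0.28 to 0.14 for APOA4, from -0.24 to 0.16 for MTTP, from -0.07 to 0.38 for APOB and from -0.70 to -0.25 for APOA1. The 3 members called for the line by LPS term became 0 with DESeq2 and 0 without TMM, and the count over all genes went from 14 to 3 and 4, respectively. Both alternatives were chosen after seeing the data. In the cluster comparison, 8 members at the main setting and at Leiden 0.8, and 7 with log normalization, were higher in enterocyte-like cells of all libraries. The matching share of all genes is not reported here. The labels do not pair control and LPS cultures, so no paired analysis of LPS was run. The single LPS library, its lower depth and the few UMIs of MTTP, APOM and APOB in HT29-line cells (22 to 106 per library) limit these comparisons.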
